A study of Homo sapiens with 3 samples.

Results

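The regions described here are the narrow autosomal peaks of Nup93 in DLD-1, a long-established cell line from a human colorectal adenocarcinoma. They were found by chromatin immunoprecipitation followed by sequencing (ChIP-seq), which recovers the DNA crosslinked to a protein and maps it to the genome. The series has 2 Nup93 ChIP libraries, which are biological replicates made with an antibody to Nup93, and 1 Input library of sonicated chromatin that saw no antibody. The authors deposited 1 list of 404 peaks for the 3 libraries, in hg19 coordinates, with a chromosome, a start and an end per peak and nothing else. Narrow autosomal peaks are the intervals on chromosomes 1 to 22 that are at most 1000 bp wide, leaving out the dense runs of peaks at LMNA and FBL. This choice gave 322 peaks, 79.7% of the list. The rest were 58 wider autosomal peaks, called wide peaks below, 10 peaks in the LMNA and FBL runs, and 14 peaks off the autosomes.

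Nup93 is a scaffold nucleoporin of the inner ring of the nuclear pore complex, the channel through which proteins and RNA pass between nucleus and cytoplasm. Several nucleoporins also contact chromatin, at the pore or in the nucleoplasm, and such contacts have been linked to both active and silent genes. The HOXA genes, on which the study centred, encode homeodomain transcription factors that set position along the body axis and are clustered on the short arm of chromosome 7. A ChIP-seq peak marks a stretch where immunoprecipitated fragments pile up, and its width depends on the extent of binding, on fragment length and on the rule that ends a peak.

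The list has no value per library and no height, enrichment or p-value per peak. No result below therefore has a replicate error, the depth is unknown, and no difference between narrow and wide peaks was tested, since peaks of a single list are not replicates. Intervals given for shares cover counting error only and treat peaks as separate events, which clustered peaks are not. The genes, start sites, base composition and motifs at the peaks were not analysed here, because the gene and promoter tables used were of GRCh38.p14 and the peaks are in hg19.

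Narrow peaks covered 219.2 kb, 64.8% of the 338.1 kb covered by the list, and the 58 wide peaks covered 92.8 kb, 27.4%. The median width of a narrow peak was 670 bp, with quartiles of 595.25 and 761 bp and a mean of 681 ± 122 bp (SD over 322 peaks). Widths were most frequent near the median: 107 peaks (33.2%) measured over 600 and up to 700 bp, 79 measured over 700 and up to 800 bp, and 62 measured over 500 and up to 600 bp. Only 24 peaks were 500 bp or narrower, and 15 were wider than 900 bp. The width limit is part of the choice of peaks, so these values describe the set and are no finding about it.

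**Figure D1:**
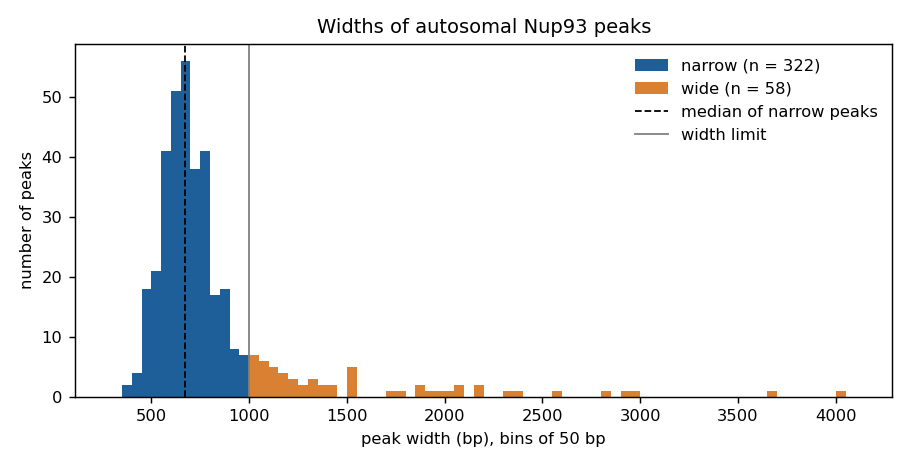
Number of autosomal peaks by width in bp, in bins of 50 bp, for 322 narrow peaks (blue) and 58 wide peaks (orange), with the median of the narrow peaks (dashed) and the width limit of 1000 bp (grey). Narrow peaks gather around 670 bp, and the limit falls where numbers decline gradually, with 15 narrow peaks over 900 bp.

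The width limit did not fall in a gap. The widest narrow peak measured 995 bp, at chr11:8703870-8704864, followed by peaks of 991 bp at chr2:147907349-147908339 980 bp at chr20:32254930-32255909, 966 bp at chr2:32618137-32619102 and 959 bp at chr11:69216785-69217743. On the other side of the limit, the narrowest wide peak measured 1005 bp, at chr17:73544872-73545876, and the next ones 1011 bp, at chr6:27099789-27100799 and chr17:80238967-80239977. The narrowest peak of all was 380 bp wide and lay almost at the start of chromosome 5, at chr5:10298-10677. It was followed by peaks of 395 bp at chr19:36044975-36045369, 409 bp at chr1:101987011-101987419, 433 bp at chr22:51063232-51063664 and 434 bp at chr1:67794651-67795084.

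Every autosome carried narrow peaks, from 4 on chromosome 13 to 30 on chromosome 2, with a median of 14.5. After chromosome 2 the highest numbers were 23 on chromosome 1, 22 on chromosome 11, 21 on chromosome 7 and 20 on chromosome 4. The lowest after chromosome 13 were 5 on chromosome 21, 7 on chromosome 18 and 8 on chromosome 14. Chromosomes 3, 4, 5, 15 and 20 had 77 narrow peaks between them (23.9% of the narrow peaks) and no wide peak. This number of chromosomes followed the width limit, with 0 chromosomes lacking a wider peak at a limit of 800 bp and 11 at 1500 bp. Wide peaks were also fewer, 58 beside 322, and whether their number accounts for the empty chromosomes was not tested. Chromosomes 11 and 16 had 14 of the 58 wide peaks, with 8 and 6, beside 22 and 16 narrow peaks.

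**Figure D2:**
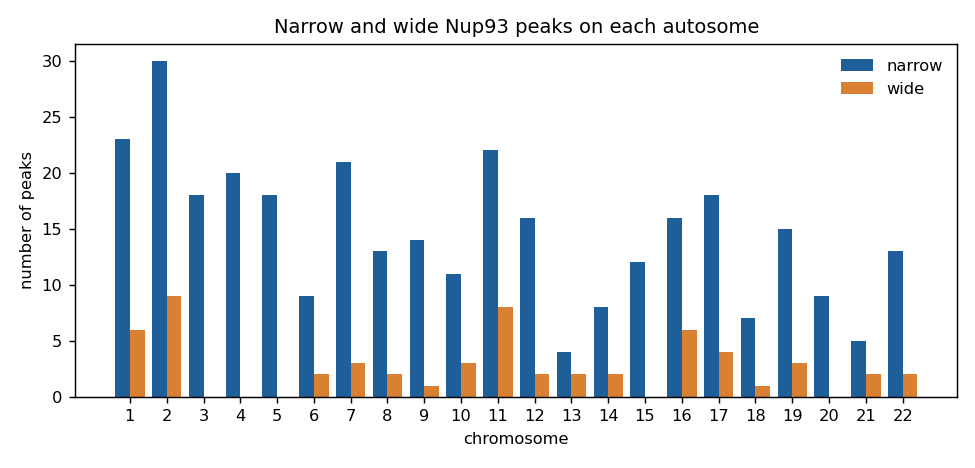
Number of narrow (blue) and wide (orange) Nup93 peaks on each of the 22 autosomes. Narrow peaks are found on all of them, with 30 on chromosome 2 and 4 on chromosome 13, and at the limit of 1000 bp there is no wide peak on chromosomes 3, 4, 5, 15 and 20 (0 chromosomes lack one at a limit of 800 bp, 11 at 1500 bp).

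Chromosomes with more annotated genes tended to have more narrow peaks. Across the 22 autosomes, Pearson's r between the number of narrow peaks and the number of genes listed for GRCh38.p14 was 0.77 and Spearman's rho was 0.78. Without chromosomes 1 and 21, whose gene numbers lie farthest from the median, r was 0.77 and rho 0.72 over 20 chromosomes. Against protein-coding genes alone, r was 0.74 and rho 0.80, and for wide peaks against all genes r was 0.51 and rho 0.33. The 58 wide peaks gave small counts per chromosome, and whether this lowered their coefficients was not tested. All these coefficients are descriptions across chromosomes. Longer chromosomes hold more genes and more sequence in which a peak can be called, and chromosome length was not used here.

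The number of narrow peaks per 1000 annotated genes was 5.67 over all autosomes. It was highest on chromosome 22, at 9.75 (13 peaks, 1333 genes), and next highest on chromosome 16, at 7.36, chromosome 4, at 7.35, and chromosome 2, at 7.05. Chromosome 13, at 2.60, and chromosome 6, at 2.66 (9 peaks, 3387 genes), were lowest. Chromosome 1 had 4.09 with the largest gene number, 5627. Chromosome 19, which is known for its high gene density, had 15 peaks and 5.56 per 1000 genes, near the overall value, but 10.3 per 1000 protein-coding genes compared with 16.8 over all autosomes. Chromosome 4, a gene-poor chromosome, had 26.0 per 1000 protein-coding genes. By this measure chromosome 22 was highest, at 28.8, and chromosome 6 was lowest, at 8.58. Chromosome 13, with 338 protein-coding genes, had 11.8, and chromosome 18, with 270, had 25.9. Gene density was not computed, so these examples cannot show whether there is a trend with it.

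**Figure D3:**
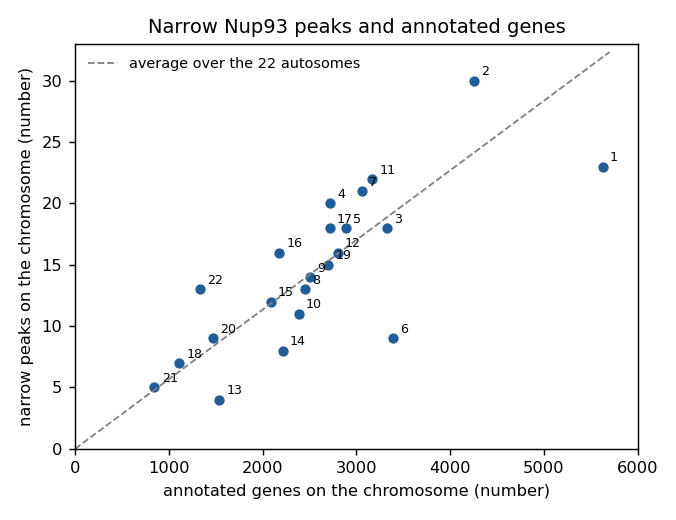
Narrow peaks against annotated genes (GRCh38.p14) for each of the 22 autosomes, labelled by chromosome; the dashed line is the average of 5.67 peaks per 1000 genes. Chromosomes 22, 16, 4 and 2 lie above the line, and chromosomes 1, 6, 13 and 14 lie below it.

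The median width of the narrow peaks on a chromosome ranged from 618 bp, on chromosomes 19 and 22, to 777 bp, on chromosome 21, where it rests on 5 peaks. Chromosome 16 combined a high median, 762 bp over 16 narrow peaks, with 6 wide peaks. Chromosome 2, with 9 wide peaks, had a median of 649 bp, and chromosome 20, with no wide peak, had 753 bp. On chromosome 4, which had no wide peak, the 20 narrow peaks measured 477 to 891 bp with a median of 691.5 bp, and on chromosome 9 the 14 narrow peaks measured 543 to 720 bp. The narrow peaks of all chromosomes overlapped in width.

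Narrow peaks were mostly far apart, by distances that depend on how many peaks are listed and for which no reference spacing was computed. The median distance between neighbours was 3.43 Mb over 300 intervals, with quartiles of 0.596 and 10.7 Mb. In 80 of the intervals, neighbours were more than 10 Mb apart, and 29 narrow peaks had no other autosomal peak of any width within 10 Mb. The longest stretch between neighbouring narrow peaks was 84.3 Mb on chromosome 9, from 34638292 to 118949799, followed by 79.8 Mb on chromosome 13, 64.7 Mb on chromosome 5, 55.5 Mb on chromosome 16 and 51.0 Mb on chromosome 3. The most isolated peak, of 721 bp at chr5:33440849-33441569, lay 32.2 Mb from its nearest peak. Unsequenced stretches, in which no peak can be called, were not marked in these distances.

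A minority of the narrow peaks lay close to another. Of the 322, 157 (48.8%) had another narrow peak within 1 Mb, 44 (13.7%) within 100 kb, 15 (4.66%) within 10 kb and 6 within 1 kb. Nearness is mutual, so the 44 peaks came from 24 pairs of neighbours and the 15 from 8 pairs. The 44 peaks with a neighbour within 100 kb had a median width of 676.5 bp, and the 165 with none within 1 Mb had a median of 663 bp.

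At most 1 kb separated 3 pairs. On chromosome 3, peaks of 765 bp (chr3:127258238-127259002) and 494 bp (chr3:127259244-127259737) had 241 bp between them. Near the far end of the narrow peaks of chromosome 4, peaks of 706 bp (chr4:190154948-190155653) and 677 bp (chr4:190156029-190156705) had 375 bp between them, and these were the last 2 narrow peaks of that chromosome. On chromosome 5 the pair was formed by the first 2 narrow peaks, of 380 bp (chr5:10298-10677) and 735 bp (chr5:11391-12125), 713 bp apart. All other pairs within 10 kb had at least 1121 bp between them. They comprised a run of 3 peaks at chr7:2561466-2569778 and pairs at chr7:157940866-157944611, chr12:132341993-132350349 and chr19:47920356-47926076.

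No narrow peak had a wide peak within 10 kb, and among the 58 wide peaks 6 had another wide peak that close, in 3 pairs that were all on chromosome 11. This absence of mixed neighbours depended on the limits chosen. There were 3 pairs of a narrow and a wider neighbour within 10 kb at a width limit of 1500 bp, 1 with the LMNA and FBL runs kept and 0 at a limit of 800 bp. Within 100 kb, 7 narrow peaks had a wide neighbour. The nearest were a peak of 874 bp at chr11:2919570-2920443, 10.4 kb from a wide peak of 1409 bp, and a peak of 564 bp on chromosome 22, 13.2 kb from a wide peak. The median distance from a narrow peak to the nearest narrow peak was 1.03 Mb, and from a wide peak to the nearest narrow peak it was 1.69 Mb. From a wide peak to the nearest wide peak the median was 6.32 Mb, a distance that the smaller number of wide peaks lengthens by construction.

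**Figure D4:**
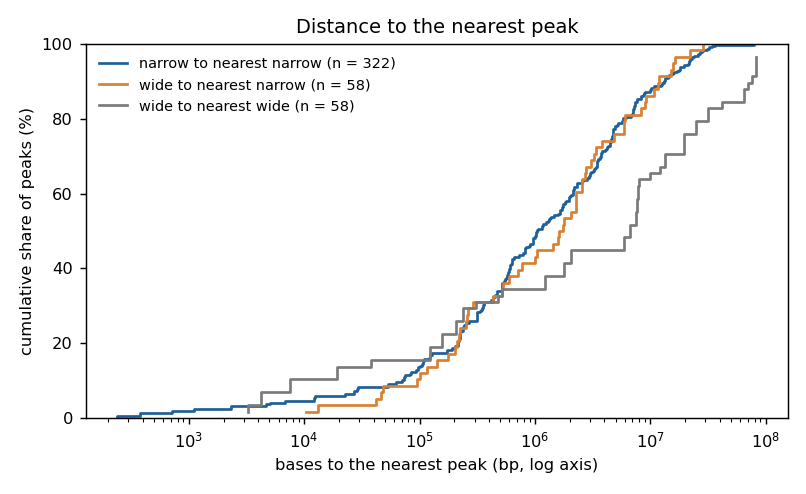
Cumulative share of peaks by distance to the nearest peak, in bp on a log axis, for narrow peaks to the nearest narrow peak (blue), wide peaks to the nearest narrow peak (orange) and wide peaks to the nearest wide peak (grey; peaks alone on their chromosome stay in n). The orange line starts above 10 kb, where 4.66% of the narrow peaks already have a narrow neighbour.

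Joining narrow peaks with at most 1 Mb between neighbours gave 226 groups, of which 165 held a single peak, 42 held 2, 11 held 3 and 4 held 4. The other 4 groups, of 5 or more, held 24 peaks. The group with the most peaks had 8 and spanned chr11:409561-2920443, with widths of 627 to 954 bp, and 6 wide peaks lay among them. The next had 6 peaks at chr16:70601-1701839, with widths of 635 to 868 bp and no wide peak among them. Chromosome 7 had 5 peaks in 0.369 Mb at chr7:157940866-158309717, with widths of 586 to 795 bp, and these were its last 5 narrow peaks. Chromosome 15 had 5 peaks in 2.25 Mb at chr15:40389024-42636366, the first narrow peaks of that chromosome, with widths of 575 to 873 bp.

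The first 3 Mb of the chromosomes held 32 of the 322 narrow peaks (9.94%) and 10 of the 58 wide peaks (17.2%), shares that were not compared by a test. The far ends of the chromosomes were not counted in the same way, since chromosome lengths were not used, so nothing here sets beginnings apart from ends. The narrow peaks of the first 3 Mb came from 10 chromosomes: 8 from chromosome 11, 6 from chromosome 16, 4 each from chromosomes 4, 5 and 7, 2 from chromosome 1 and 1 each from chromosomes 10, 12, 19 and 20. The other 12 chromosomes had none there. Unsequenced stretches, in which no peak can be called, were not marked here either. Some chromosomes without a peak of any width there may therefore have had no sequence to hold one. Chromosome 8 is not among them, since it had no narrow peak there but 1 wide peak. Wide peaks of the first 3 Mb came from 4 chromosomes, with 7 of the 10 on chromosome 11. Chromosomes 1, 8 and 10 had 1 each. The higher share of wide peaks in the first 3 Mb thus rested on chromosome 11. On chromosomes 4, 5, 7 and 16, picked after their values were seen, the first 3 Mb held 18 narrow peaks and no wide peak. Chromosomes 4 and 5 had no wide peak anywhere at this width limit, so its absence from their first 3 Mb adds nothing.

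Chromosome 16 began with narrow peaks of 635 bp at chr16:70601-71235, 710 bp at chr16:384255-384964 and 868 bp at chr16:698822-699689. Chromosome 4 began with peaks of 669 bp at chr4:671374-672042 and 772 bp at chr4:910682-911453. On chromosome 12 the first narrow peak, of 842 bp, lay at chr12:94955-95796, and the next narrow peak followed only at chr12:27014605-27015290. The median width of the narrow peaks in the first 3 Mb was 732 bp, and that of the others 663 bp, a description over peaks for which no test was made.

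The 21 narrow peaks of chromosome 7, which carries the HOXA cluster, left a stretch of 8.89 Mb on the short arm between a peak of 742 bp (chr7:23020279-23021020) and a peak of 565 bp (chr7:31910683-31911247). No wide peak lay in it either. Many stretches between narrow peaks were longer than this: 84 of the 300 intervals between neighbours (28.0%). On chromosome 7 itself, 5 were longer, among them 16.1 Mb from 6873378 to 23020279 and 12.7 Mb from 31911247 to 44621017. The stretch is described because of the approximate place of the cluster known from general background. The coordinates of the HOXA genes in hg19 were not used, so no distance from a peak to the cluster and no overlap was computed.

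Around the runs at LMNA, which encodes the A-type lamins of the nuclear lamina, and FBL, which encodes the nucleolar RNA methyltransferase fibrillarin, narrow peaks were not dense. The LMNA run, of 6 peaks with a median width of 815.5 bp, had its nearest narrow peaks 1.78 Mb before it (chr1:154301458-154302080, 623 bp) and 46.2 Mb after it (chr1:202272009-202272645, 637 bp). For the FBL run, of 4 peaks with a median of 875 bp, they lay 4.28 Mb before (chr19:36044975-36045369, 395 bp) and 6.52 Mb after (chr19:46850187-46851033, 847 bp). These distances leave out wide peaks. A wide peak of 1188 bp lay closer to the FBL run, 3842501 bp after the narrow peak of 395 bp. Of the 10 peaks in both runs, 9 were at most 1000 bp wide and were left out by position alone.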

How the data were processed

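The labels list 2 Nup93 ChIP libraries and 1 Input library. The authors' deposited list holds peak positions and has no other unit. Per the submitters' processing notes, which give no role or order, the tools were FastQC 0.72 and Bowtie2 2.2.6 and the build was hg19. The peak caller, its threshold, later filters and whether libraries were pooled are not given in the sources used here, and a different threshold would change which peaks are listed. Starts were read as counted from 0 and are printed counted from 1.

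Peaks were selected and measured in Python 3.11.15 with numpy 2.4.6, pandas 2.3.3 and scipy 1.17.1, and plotted with matplotlib 3.10.9. Distances are the bases between the end of a peak and the start of the next. Shares are plain percentages without confidence intervals. The distance routines were tested on simulated data. Gene numbers per chromosome were counted in RefSeq GRCh38.p14, and no position was taken from it.

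The named peaks are the 5 narrowest and 5 widest, those at the width limit, those of the closest pairs and those on both sides of the stretch of chromosome 7 where the HOXA cluster is known, as approximate background without coordinates, to lie. Other named peaks (long intervals, groups, chromosome starts, neighbours of runs) were chosen after their values were seen. The peaks to describe and the measures were chosen with earlier results of these data known. Planned descriptions of start sites, genes, base composition and motifs were not run.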

Additional observations from a re-analysis of the deposited data

How the results depend on the processing

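The number of narrow peaks was 272 to 356 with width limits of 800 and 1500 bp, with peaks within 1 kb merged and with the LMNA and FBL runs kept. Keeping the 161 widest narrow peaks raised the median from 670 to 761 bp, and a limit of 800 bp lowered it to 650 bp, both by construction. The list gives no peak strength, so width cannot stand in for a stricter calling threshold, whose effect was not tested. Peaks with a neighbour within 100 kb numbered 36 to 55 under the alternatives, against 44. The share of narrow peaks in the first part of a chromosome was 12.7% for the first 5 Mb, against 9.94%. It was 9.56% with a limit of 800 bp and 8.0% without chromosome 11. Autosomes with no wide peak depend on the limit: 5 at 1000 bp, 0 at 800 bp and 11 at 1500 bp. Pairs of a narrow and a wider neighbour within 10 kb numbered 0 at 1000 bp, 0 at 800 bp, 3 at 1500 bp and 1 with the runs kept. The alternatives for these last 2 results were chosen after seeing the data.

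Alternatives for start sites, genes, base composition and motifs were not run, as they need sequence or annotation in hg19. Leaving out a library was not run. No paired analysis was possible because peaks come without measurements from either ChIP library. The unknown depth and threshold limit every absence: a stretch without peaks has none above that threshold.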
